A study of Mus musculus with 20 samples.

Results

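Wide H3K27ac regions are long stretches of chromatin under peaks of acetylated histone H3. They were selected on their width in 2 of the H3K27ac libraries, by merging overlapping peaks of H3K27ac replicates 2 and 3 and keeping merged regions of 4 kb or more that held a peak in both lists. This gave 1243 regions, 2.54% of the 49011 merged regions with a peak in both lists, out of 218200 merged regions in all. The other 47768 regions with a peak in both lists are called narrower regions below. A single merged region of 4 kb or more had a peak in 1 list only and was left out. With peaks of replicate 2 alone 636 were of 4 kb or more, and with replicate 3 alone 512.

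The data are CUT&Tag libraries, in which an antibody directs a transposase to cut DNA beside a protein or histone mark. They were made from nuclei of ganglia labelled CVG, dissected from C57BL/6J mouse embryos of age E11.5 (days of gestation), with no treatment, mutation or transgene named for any group. In work on the inner ear CVG is the usual abbreviation for cochleovestibular ganglion, which holds the neurons of hearing and balance. Peak lists of 14 libraries were used: ISL1_26 (1 library), ISL1_70 (3), POU4F1 (2), H3K27ac (3), H3K4me3 (2) and H3K27me3 (3). The labels give ISL1 as the antibody target of both ISL1 groups and do not say how many embryos went into a library. All values therefore describe a dissected tissue that can hold several cell types.

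H3K27ac, acetylation of lysine 27 of histone H3, marks active promoters and enhancers. Long stretches of it, often called super-enhancers or stretch enhancers, are known to lie near genes that define a cell's identity. H3K4me3 marks promoters, and H3K27me3 is the mark of Polycomb repression. ISL1 is a LIM homeodomain factor and POU4F1 a POU homeodomain factor, and both are needed for sensory neurons to mature and survive. Homeodomain proteins bind short sites with a TAAT core, and basic helix-loop-helix factors such as the NEUROD family bind E-boxes, CANNTG.

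The promoters shown here are those where factor peaks met a gene start inside a wide region. In the RefSeq promoter table of GRCm38.p6, the assembly of mm10, 383 starts of 273 genes lay inside a wide region. An ISL1 peak overlapped the window from 250 bases before to 50 after the start in at least 1 library for 206 of these starts (53.8%), and in all 4 libraries for 5 starts of 4 genes. Those 4 genes are Phc2, which encodes a Polycomb subunit, Stra6, the receptor for retinol-binding protein, Klf7, a zinc finger factor of sensory neurons, and Pgf, a growth factor of the VEGF family. Counts of starts with factor peaks are given here for wide regions only, so they are no comparison with other starts. The 150 bases before each start follow, read 5′ to 3′ in the direction of the gene. Capitals mark a match on either strand to the homeodomain motif CTAATG, the homeodomain motif TAATTA, the E-box CAGATG or the E-box CAGCTG, and no motif of these contains another.
Phc2: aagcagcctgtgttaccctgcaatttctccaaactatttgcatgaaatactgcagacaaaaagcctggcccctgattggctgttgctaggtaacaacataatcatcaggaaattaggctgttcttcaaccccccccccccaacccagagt
Stra6: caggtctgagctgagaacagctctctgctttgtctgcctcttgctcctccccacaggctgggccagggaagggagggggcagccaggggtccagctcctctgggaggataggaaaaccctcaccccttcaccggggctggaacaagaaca
Klf7: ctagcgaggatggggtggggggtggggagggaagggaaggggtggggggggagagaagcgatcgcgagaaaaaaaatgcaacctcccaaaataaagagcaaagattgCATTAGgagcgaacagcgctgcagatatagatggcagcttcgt
Pgf: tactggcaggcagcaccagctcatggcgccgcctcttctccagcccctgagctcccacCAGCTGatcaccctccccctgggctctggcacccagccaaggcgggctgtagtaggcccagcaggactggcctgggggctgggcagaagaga

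The stretch of Phc2 lies at chr4:128688588-128688737 on the plus strand and that of Stra6 at chr9:58133925-58134074 on the plus strand. The stretch of Klf7 lies at chr1:64121390-64121539 on the minus strand and that of Pgf at chr12:85175983-85176132 on the minus strand. Their wide regions measured 11.03 kb, 9.91 kb, 5.46 kb and 4.16 kb. None of the 4 windows met a peak of POU4F1 replicate 1, and that of Klf7 met a peak of POU4F1 replicate 2. Of the 383 starts, 18 had an ISL1 peak in at least 2 libraries together with a peak of POU4F1 replicate 1. A pair of genes of sensory neurons among these 18 is shown next, chosen after their values were seen: Nhlh1, a helix-loop-helix factor of young neurons, and Slc17a6, the vesicular glutamate transporter that loads their synaptic vesicles.
Nhlh1: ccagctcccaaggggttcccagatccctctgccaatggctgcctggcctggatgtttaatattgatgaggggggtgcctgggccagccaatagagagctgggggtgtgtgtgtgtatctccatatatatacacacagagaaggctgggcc
Slc17a6: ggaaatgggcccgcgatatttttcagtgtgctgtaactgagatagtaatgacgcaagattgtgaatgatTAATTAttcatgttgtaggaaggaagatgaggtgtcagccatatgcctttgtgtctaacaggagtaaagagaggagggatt

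The Nhlh1 stretch lies at chr1:172057597-172057746 on the minus strand, in a wide region of 7.24 kb. Its window met peaks of ISL1_70 replicates 1 and 2. The Slc17a6 stretch lies at chr7:51624487-51624636 on the plus strand, in a wide region of 4.07 kb. Its window met peaks of ISL1_26 replicate 1 and ISL1_70 replicate 1. It holds TAATTA, which was rare at starts inside wide regions: 3 of 383 windows held it (0.783%), against 4.53% of the windows of all 21263 starts in the table. Over the same windows CTAATG was found in 6.53%, against 6.44% of all, and CAGATG in 14.4%, against 14.6% of all. CAGCTG was found in 18.8% of the windows inside wide regions and in 15.6% of all. The windows inside wide regions had a median GC content of 63.0% and a median of 19 CpG, against 56.3% and 13 CpG over all starts. In narrower regions TAATTA was in 1.88% of 8205 windows, at a median GC content of 62.7% and a median of 23 CpG. The same windows held CTAATG in 3.92%, CAGATG in 10.3% and CAGCTG in 14.6%. Against this class, similar in GC content but with more CpG, TAATTA was less frequent in wide regions and the other motifs more frequent. The TAATTA share in wide regions rests on 3 windows. Starts of the same gene were counted separately, over 273 genes in wide and 6958 in narrower regions, and the differences were not tested. These matches describe letters in a window and say nothing on their own of binding.

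The width of the wide regions, which chose them, ran from 4 kb to 20.8 kb, with a median of 5.01 kb and quartiles at 4.42 and 6.16 kb. Narrower regions had a median of 1.09 kb. Wide regions of 5 kb or more numbered 625 (50.3%), those of 8 kb or more 122 (9.82%) and those of 10 kb or more 50 (4.02%). The plot of region widths shows no gap at 4 kb. The 3 regions just inside the threshold, nearest to ends of H2bc13, Nmnat2 and Mcf2l, measured 4000, 4001 and 4001 bp. The 3 just outside it, nearest to Cadm1, Anp32a and Rab6b, measured 3999, 3998 and 3998 bp.

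**Figure D1:**
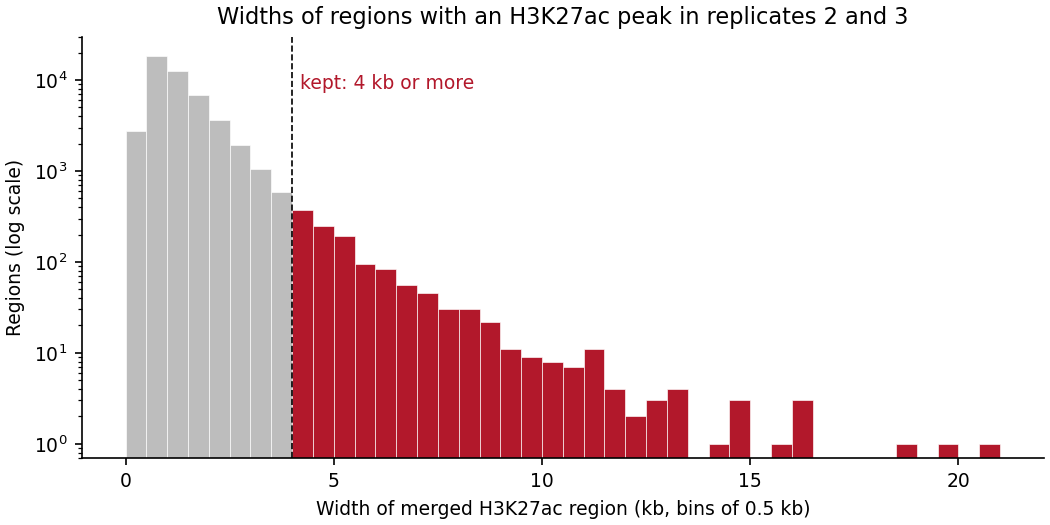
Widths of the 49011 merged H3K27ac regions with a peak in both lists, in bins of 0.5 kb, with the number of regions on a log axis. Grey bars are narrower regions, red bars the 1243 regions of 4 kb or more, and the counts fall steadily across the dashed line at 4 kb.

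A wide region was usually not a single peak. In 250 regions (20.1%) each list had 1 peak, in 373 (30.0%) a list had 3 or more, and the most was 5 peaks of replicate 2 and 6 of replicate 3. A single peak of 4 kb or more was present in both lists in 249 regions (20.0%) and in neither list in 363 (29.2%). Replicate 2 covered a median of 90.0% of a region and replicate 3 a median of 84.7%. Together the wide regions spanned 7.01 Mb, which is 10.3% of the 68.1 Mb in regions with a peak in both lists.

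The H3K27me3 and H3K4me3 lists need care as labels. The library labelled H3K4me3 replicate 1 had a median peak of 877 bp and a longest of 87.9 kb, near those of H3K27me3 replicate 2 (855 bp and 87.7 kb) and unlike H3K4me3 replicate 2 (555 bp and 7.53 kb). Its share of wide regions, 10.9%, was near the 9.25% of H3K27me3 replicate 2. The library labelled H3K27me3 replicate 1 had a longest peak of 4.44 kb and was in 39.7% of wide regions. For this reason H3K4me3 was read from replicate 2, and H3K27me3 from replicates 2 and 3.

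The share of wide regions inside gene bodies was close to that of narrower ones, with a larger share at gene ends and a smaller one outside genes. An end of a protein-coding gene (the first or last base of the annotated gene) was within 1 kb of 380 regions (30.6%). Another 691 (55.6%) lay inside the body of such a gene farther from its ends, and 172 (13.8%) outside genes. Only protein-coding genes were considered, so a region called outside genes can still hold a gene of another type. Over all regions with a peak in both lists, 20.3% had a gene end within 1 kb, and over narrower regions 20.0%. Of narrower regions 53.1% lay inside a gene body and 26.9% outside genes. A longer region meets a gene end more readily: counted per length, gene ends within 1 kb numbered 5.68 per 100 kb of wide region and its flanks, against 7.41 for narrower regions. A transcription start of the promoter table was within 1 kb of 276 wide regions (22.2%), a table that holds 17492 of the 21887 protein-coding genes (79.9%) and none of chromosome 18.

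The distance to the nearest gene end had a median of 9.81 kb for wide regions and 16.6 kb for narrower ones. Leaving out regions within 1 kb of an end, the medians were 21.7 kb over 863 wide regions and 26.7 kb over 38214 narrower ones. Still, 615 wide regions (49.5%) lay more than 10 kb from any gene end, 211 (17.0%) more than 50 kb and 82 (6.60%) more than 100 kb. The farthest was 553.5 kb away, nearest to Zfp608, and was 5.23 kb wide, with a peak in 3 ISL1 libraries and in both POU4F1 libraries. The next were 489.4 kb from Dcdc2c, 439.0 kb from Zmiz1, 432.8 kb again from Zfp608 and 351.5 kb from Cryba4. The second region near Zfp608 had peaks in all 4 ISL1 libraries and both POU4F1 libraries, while that near Cryba4 had peaks of ISL1_26 replicate 1 and of no other factor library.

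Wide regions were spread unevenly over chromosomes. They made up 3.60% of the regions with a peak in both lists on chromosome 11 (138 of 3832) and 3.34% on chromosome 2 (139 of 4162). On the X chromosome 4 of 520 regions were wide (0.769%), and on the Y chromosome 0 of 6.

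Genes that carry wide regions were few. The body or 1 kb flank of 866 protein-coding genes (3.96% of 21887) met a wide region, whereas 12192 genes (55.7%) met some region with a peak in both lists. Genes that overlap each other are counted separately in these numbers. An end within 1 kb of a wide region was found for 484 genes (2.21%), and 88 wide regions (7.08%) had ends of 2 or more genes within 1 kb. The genes that met a wide region were long, with a median length of 41.4 kb, against 17.2 kb for all protein-coding genes.

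Among 14 gene lists, transcription factors of inner ear neurons met wide regions most often. Of these 34 genes 16 did (47.1%), against 3.96% of all protein-coding genes, and 10 had an end within 1 kb of a wide region, against 2.21% of all. Their median length was 24.3 kb, and 31 of the 34 met some region with a peak in both lists. Among the 16 genes were Isl1, Insm1, Nhlh1, Eya2, Runx1, Ebf1, Ebf2, Ebf3, Sox11, Tlx3, Prdm12, Cux2, Tbx3, Onecut1 and Zeb2. Neurod4 and Neurod6 met no region with a peak in both lists. The list was chosen with earlier results of these data known, so its count is a description. Without H3K27ac replicate 2 it was 11 of 34 and without replicate 3 it was 10 of 34.

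Eya2 and Onecut1 were among these genes with the widest regions. Eya2, a co-activator in the otic placode and its neurons, carried 6 wide regions, the widest of 10.54 kb inside its body. Of the 6, 5 held ISL1 peaks in at least 2 libraries and 2 held a peak of POU4F1 replicate 1. Onecut1, a homeodomain factor of developing neurons, had its wide region of 8.73 kb over a gene end, with ISL1 peaks in 3 libraries and 1 peak of POU4F1 replicate 1.

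Across the 22 wide regions of the 16 factors, 20 held ISL1 peaks in at least 2 libraries and 7 in all 4. Over all wide regions these shares were 75.5% and 21.7%. A peak of POU4F1 replicate 1 was in 10 of them, against 36.4% of all wide regions. Peaks of the Polycomb mark H3K27me3 in both replicates 2 and 3 were in 11, against 7.97%, and peaks of H3K4me3 replicate 2 in 15, against 36.5%. The genes of the pair of factors profiled differed at the 4 kb limit. Isl1 carried a wide region of 5.80 kb inside its body (chr13:116301142-116306941), with 1 peak of ISL1_26 replicate 1 and none of any other ISL1 or POU4F1 library. Pou4f1 had no wide region within 100 kb. Its widest region measured 3.19 kb (chr14:104469367-104472554), 1.25 kb from a gene end, with a peak in each of the 4 ISL1 libraries and 1 of POU4F1 replicate 1.

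Other lists of neuronal function had shares of at least 20.0%, against 3.96% of all genes. Axon guidance and adhesion had 6 of 25 genes, with a median gene length of 222.5 kb. Its widest were at Plxna1, a semaphorin co-receptor (9.72 kb), Ephb2, an ephrin receptor with 7 wide regions (the widest 5.53 kb), and Alcam, an adhesion molecule of axons (5.48 kb). Neurotrophin and survival signalling had 3 of 14 genes. Bcl2l1, an inhibitor of apoptosis, had a wide region of 6.245 kb with a peak in 1 ISL1 library, and Gfra1, a GDNF co-receptor, had 2, the wider of 4.80 kb. With either H3K27ac library left out the axon list had 3 of 25 genes, and without replicate 2 the neurotrophin list had 1 of 14.

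Neuronal cytoskeleton and synapse had 6 of 30 genes (20.0%). The widest were at Gap43, a growth cone protein (5.65 kb), Basp1, another growth cone protein (5.42 kb), and Tubb2b, a neuronal tubulin (5.18 kb). All 7 regions of this list held ISL1 peaks in at least 2 libraries, and 2 held a peak of POU4F1 replicate 1, near the 75.5% and 36.4% of all wide regions at this number. The list had 2 of 30 genes without H3K27ac replicate 2 and 3 of 30 without replicate 3. Schwann cell and neural crest genes had 4 of 20 (20.0%), among them Sox10, the crest and glial factor with regions of 8.09 and 7.75 kb, Mbp, a myelin protein (5.48 kb), and Zfp536 (4.73 kb). The labels do not say which cell types the ganglia held, and the part of each in a region was not tested.

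Regulators shared by many tissues were also present. LIM homeodomain cofactors and chromatin regulators had 5 of 20 genes (25.0%), among them Ssbp3, which stabilises the LDB complex of LIM factors, with 8 regions (the widest 8.46 kb), Arid1a, a chromatin remodeller (7.28 kb), Tle1 and Kdm6b. Developmental signalling had 6 of 32 (18.8%), with the widest at Rxra (6.56 kb), Rara (5.58 kb), both retinoic acid pathway receptors, and Zbtb20 (5.09 kb). The widest region of Ssbp3 held no ISL1 peak. With either H3K27ac library left out the cofactor list had 3 genes, and the signalling list had 1 without replicate 2 and 3 without replicate 3.

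At the 4 kb limit, counts in lists of other tissues and general functions were small. At 3.96%, the share of all genes whatever their length, a list of this size would hold about 1 gene. The counts were 0 of 25 for otic epithelium and hair cells, 0 of 21 for endothelium and blood, 0 of 20 for muscle, heart, gut and liver, and 0 of 20 for Hox genes. Some region with a peak in both lists was met by 15, 12, 8 and 4 of these genes. Mesenchyme had 2 of 25 genes, Col2a1, the main collagen of cartilage (8.15 kb), and Pdgfrb (4.29 kb). Housekeeping genes had 2 of 20, Actb (6.19 kb) and Gapdh (4.17 kb), and cell cycle and progenitor genes 2 of 28, Notch1 (6.51 kb) and Mycn (4.56 kb). Mesenchyme and housekeeping genes had 1 each with either H3K27ac library left out, and cell cycle genes 1 without replicate 2. With a limit of 3 kb, cell cycle genes had 10 of 28, housekeeping genes 7 of 20 and otic genes 3 of 25. Muscle had 1 of 20, mesenchyme 2 of 25, and endothelium and Hox genes 0. Cytoskeleton and synapse genes had 10 of 30 at that limit, so the contrast with general functions depends on the limit. The share of all genes at 3 kb is not given here. Gene lengths differed between lists. The median was 9.15 kb for otic, 33.4 kb for endothelium, 16.65 kb for muscle and 3.56 kb for Hox genes. It was 29.1 kb for mesenchyme, 5.44 kb for housekeeping and 8.37 kb for cell cycle genes. Of the lists with larger shares, neurotrophin, cofactor and signalling genes had 70.2, 82.9 and 86.9 kb. Schwann cell and cytoskeleton genes had 23.27 and 23.97 kb. Whether gene length accounts for differences between lists was not tested.

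**Figure D2:**
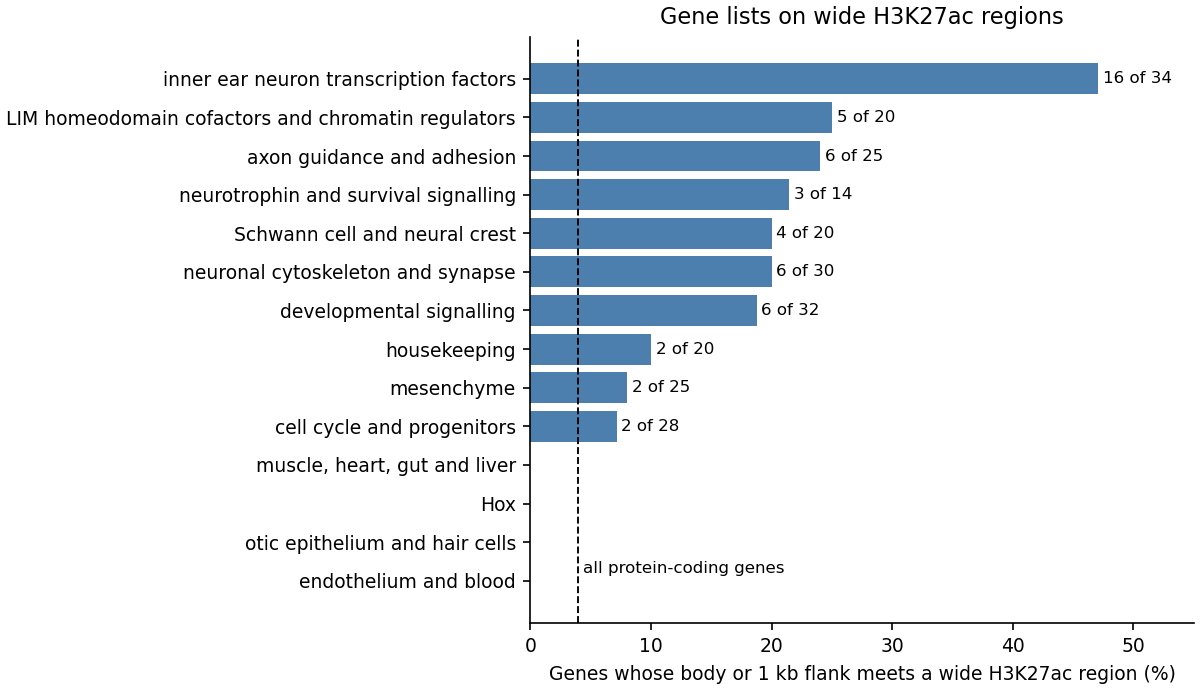
Share of each gene list whose body or 1 kb flank met a wide H3K27ac region, in percent, with the number of genes beside each bar; the dashed line is the share of all protein-coding genes, 3.96%. The inner ear neuron transcription factors stand at 16 of 34, and 4 lists of other tissues at 0.

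The widest region measured 20.84 kb and lay inside the body of Ccnjl, a cyclin-related gene (chr11:43555777-43576614), 10.38 kb from a gene end. It held 6, 6, 3 and 5 peaks of ISL1_26 replicate 1 and ISL1_70 replicates 1, 2 and 3, and 3 peaks of POU4F1 replicate 1. The second, 19.88 kb at Cxxc5, a zinc finger gene, held 4, 0, 1 and 1 ISL1 peaks in the same order, with 4 of POU4F1 replicate 1. The third, 18.80 kb, lay outside genes 11.72 kb from Nrf1, a factor of mitochondrial gene expression (chr6:30165174-30183971). It was the only wide region with a peak in all 12 other lists, 6 of them of H3K27me3 replicate 2 and 4 of replicate 3, and a single peak of H3K27ac replicate 3 spanned it. The reason for peaks of so many unlike targets in 1 place was not tested.

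The rest of the 12 widest were at Tenm4 (16.4 kb), Bcar1 (16.3 kb), Itpk1 (16.3 kb), Glis2 (15.5 kb), Prex1 (14.6 kb), Zfpm1 (14.6 kb), Fbxw8 (14.5 kb), Ptprf (14.5 kb) and Src (13.5 kb). All 12 held ISL1 peaks in at least 2 libraries, 7 in all 4, and 7 held a peak of POU4F1 replicate 1. Of all regions of 8 kb or more, 96.7% held the first and 54.9% the last, so these counts are near the share at that width. A gene end was within 1 kb of 4 of the 12, against 34.4% of the regions of 8 kb or more. The region at Tenm4, a teneurin that guides neuronal connections, lay 245.0 kb inside the gene and held 4, 2, 2 and 3 ISL1 peaks and 3 of POU4F1 replicate 1. The region at Src held 1 peak each of ISL1_26 replicate 1 and ISL1_70 replicate 1 and none of the other factor libraries.

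The 8 regions with the most factor peaks were those near Ccnjl (23 peaks of ISL1 and POU4F1 replicate 1 in all), Nrf1 (21), Phc2 (17), Cemip2 (16), Ebf3 (16), Tenm4 (14), Itpk1 (13) and Fbxw8 (13). The Ebf3 region was the shortest of the 8, at 8.06 kb (chr7:137239797-137247860). Ebf3 encodes an early B-cell factor family member expressed by developing neurons. The region held 5, 3, 3 and 2 ISL1 peaks and 3 of POU4F1 replicate 1, and no peak of any H3K27me3, H3K4me3 or H3K27ac replicate 1 list.

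**Figure D3:**
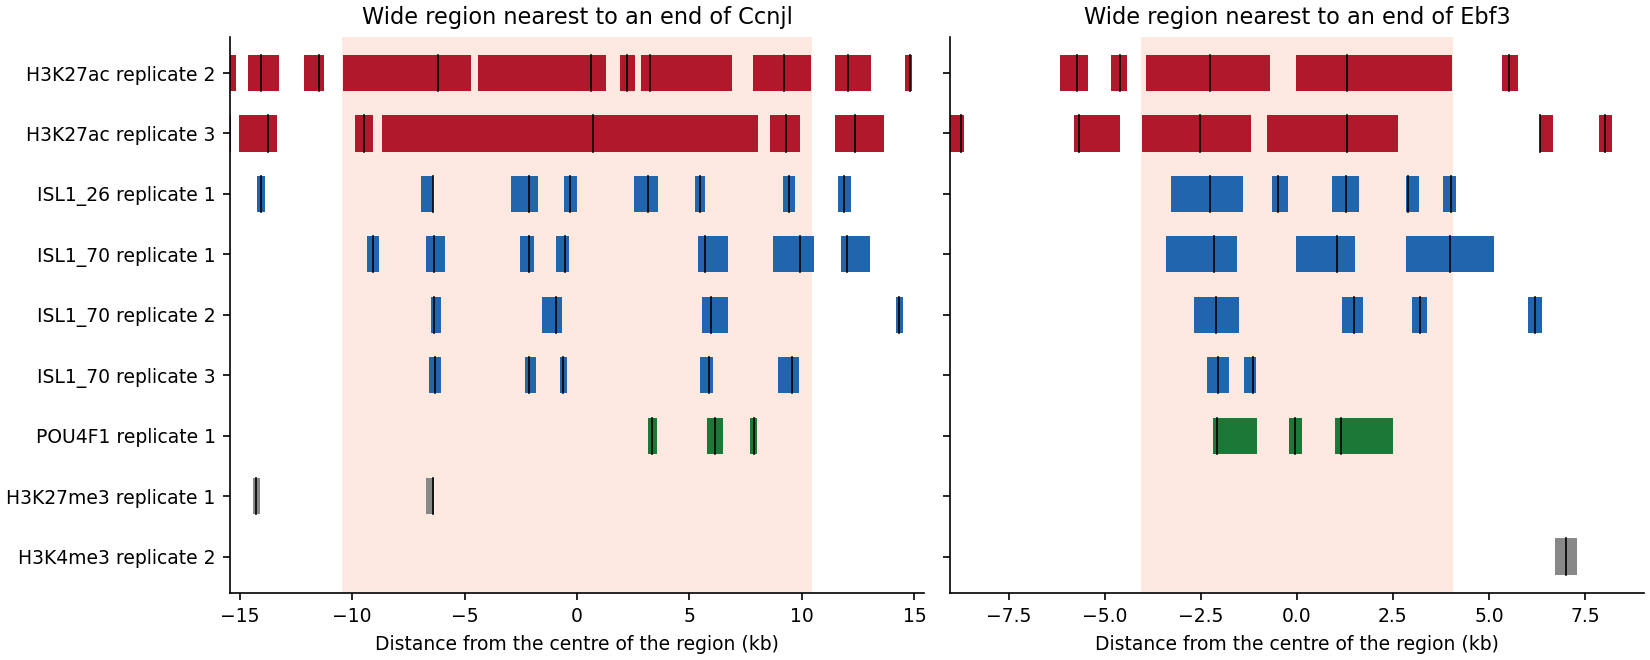
Peaks along the wide regions nearest to ends of Ccnjl (20.8 kb) and Ebf3 (8.06 kb), by distance from the centre of each region in kb. Bars are peaks of each library, black ticks their summits and shading the wide region. ISL1 peaks lie at several places along both regions. All 4 ISL1 libraries have a summit between −6.418 and −6.325 kb at Ccnjl and between −2.269 and −2.053 kb at Ebf3. The POU4F1 replicate 1 summits at Ccnjl lie on 1 side of the centre, from 3.35 to 7.85 kb.

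Many wide regions were neighbours of each other. With gaps of up to 50 kb, 219 runs held 633 of the 1243 regions (50.9%). No such share is given here for narrower regions, so this is not shown to be particular to wide ones. The longest run had 15 regions over 276.6 kb at Gse1, a gene for a protein of histone deacetylase complexes (chr8:120291310-120567922), with 101.8 kb of wide region, 71 ISL1 peaks summed over the 4 libraries and 12 of POU4F1 replicate 1. Zmiz1, a PIAS-like co-regulator of transcription, had the next, with 11 regions over 208.0 kb, 45 ISL1 peaks and 8 of POU4F1 replicate 1. By gene, counting bodies and 10 kb flanks, 1101 genes had at least 1 wide region, 97 at least 3 and 24 at least 5. Overlapping genes are counted separately here. Many of the 97 are overlapping annotations of the gamma protocadherin cluster, such as Pcdhga1 and Pcdhgc5, which all share the same 3 regions. After Gse1 and Zmiz1 came Tenm4, Prex1, Ssbp3 and Msi2, with 8 each. Of the 8 regions at Prex1 5 held ISL1 peaks in at least 2 libraries and 0 a peak of POU4F1 replicate 1, whereas 9 of the 15 at Gse1 held one.

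ISL1 peaks lay in most wide regions. A peak was present in 0 ISL1 libraries in 81 regions (6.52%), in 1 in 223 (17.9%), in 2 in 340 (27.4%), in 3 in 329 (26.5%) and in 4 in 270 (21.7%). At least 2 libraries had one in 939 regions (75.5%), against 22.2% of all regions with a peak in both lists and 20.8% of narrower ones. Summed over the 4 libraries a wide region held a median of 3 ISL1 peaks, with quartiles of 2 and 5 and a maximum of 20. POU4F1 replicate 1 had a peak in 453 wide regions (36.4%, 95% Wilson interval 33.8 to 39.2%), against 11.1% of all regions. Both together, ISL1 in at least 2 libraries and POU4F1 replicate 1, were found in 384 (30.9%), against 4.49% of narrower regions. No factor library had a peak in 60 wide regions (4.83%), against 45.4% of narrower ones.

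The share with a peak differed widely between libraries. It was 80.0% for ISL1_26 replicate 1 and, for ISL1_70, 73.8% in replicate 1, 37.0% in replicate 2 and 48.2% in replicate 3. These shares follow the lengths of the lists, which hold 95719, 80293, 24573 and 41668 peaks. For POU4F1 replicate 2, with 29096 peaks, the share was 11.8%, against 36.4% for replicate 1 with 34249, and 56 wide regions (4.51%) had a peak of both. Wide regions with 2 or more peaks of 1 library numbered 528 for ISL1_26 replicate 1. For ISL1_70 they numbered 407, 117 and 152 in replicates 1, 2 and 3, and for POU4F1 107 and 9 in replicates 1 and 2. These counts are not corrected for the length of wide regions, and none is given here for narrower ones.

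Counted per length, wide and narrower regions were much closer. The number of summits per 100 kb was 23.6 in wide and 22.2 in narrower regions for ISL1_26 replicate 1, and 20.4 and 20.1 for ISL1_70 replicate 1. It was 8.31 and 6.32 for ISL1_70 replicate 2, and 10.95 and 8.82 for ISL1_70 replicate 3. For POU4F1 replicate 1 it was 8.13 and 6.94, and for POU4F1 replicate 2 it was 2.18 and 2.60. Thus 5 of the 6 factor libraries were higher in wide regions and POU4F1 replicate 2 was lower. The log2 ratio of wide to narrower was 0.09, 0.02, 0.40, 0.31, 0.23 and −0.25 in the same order, with a mean of 0.13 ± 0.23 (SD, n = 6). This mean did not differ from 0 beyond the spread between libraries (exact sign-flip permutation test, two-sided, p = 0.219; the smallest p that 6 libraries allow is 0.0312).

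For the 4 ISL1 libraries alone the mean was 0.20 ± 0.18 (SD, n = 4), higher in 4 of 4 libraries, with p = 0.125 in the exact sign-flip permutation test, the smallest that 4 libraries allow. Against narrower regions of 2 to 4 kb the mean over the 6 factor libraries was −0.011, so the direction turned. With H3K27ac replicate 2 left out and wide and narrower peaks taken from replicate 3 alone, it was 0.82 and the exact p 0.0312. The narrower class then took in all peaks of that list, without the need for a peak in the other.

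**Figure D4:**
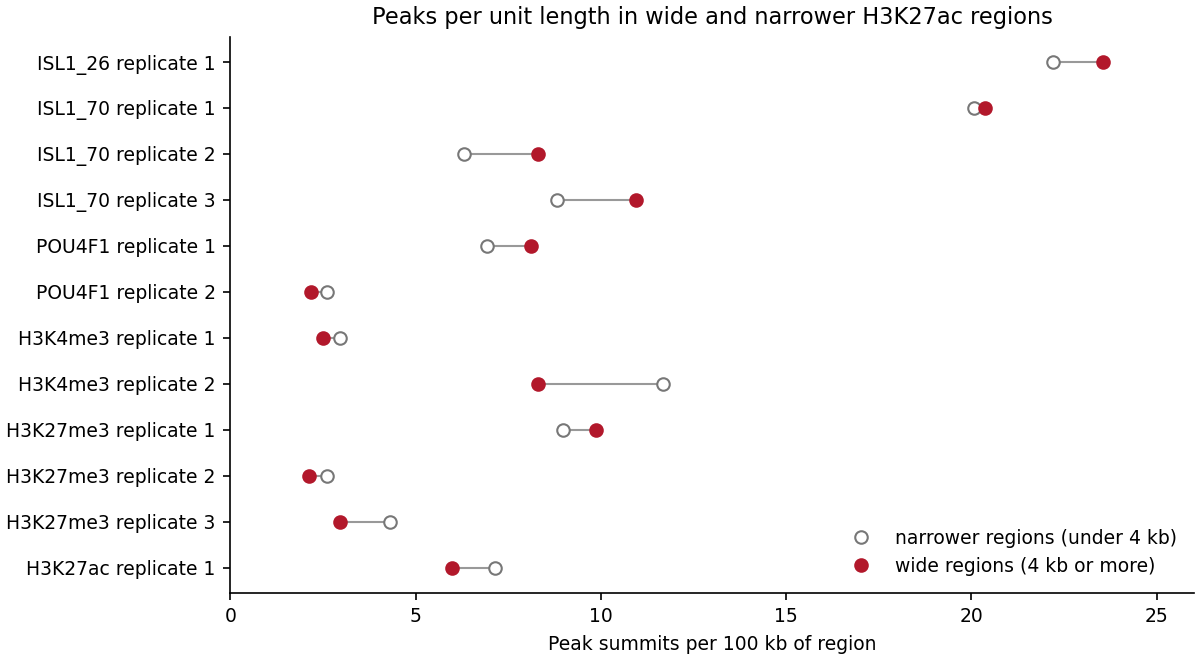
Peak summits per 100 kb in wide regions (filled points) and narrower regions (open points) for each of the 12 libraries that did not choose the regions. The ISL1 libraries and POU4F1 replicate 1 are higher in wide regions by up to 1.32 times, and POU4F1 replicate 2, H3K4me3 replicate 2 and H3K27ac replicate 1 are lower.

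Along the whole range of widths the share of regions with a factor peak rose while the rate per length levelled off. ISL1 peaks in at least 2 libraries were in 9.52% of the regions under 1 kb, 42.6% of those of 2 to 3 kb, 69.7% of those of 4 to 5 kb and 96.7% of those of 8 kb or more. Over the same widths the summits of ISL1_26 replicate 1 per 100 kb were 19.7, 23.2, 23.7 and 23.5. The share with a peak of POU4F1 replicate 1 went from 6.00% to 54.9%, and its summits per 100 kb from 5.79 under 1 kb to 7.70 at 2 to 3 kb, 8.02 at 4 to 5 kb and 8.70 at 8 kb or more. No step at 4 kb was seen in either measure.

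**Figure D5:**
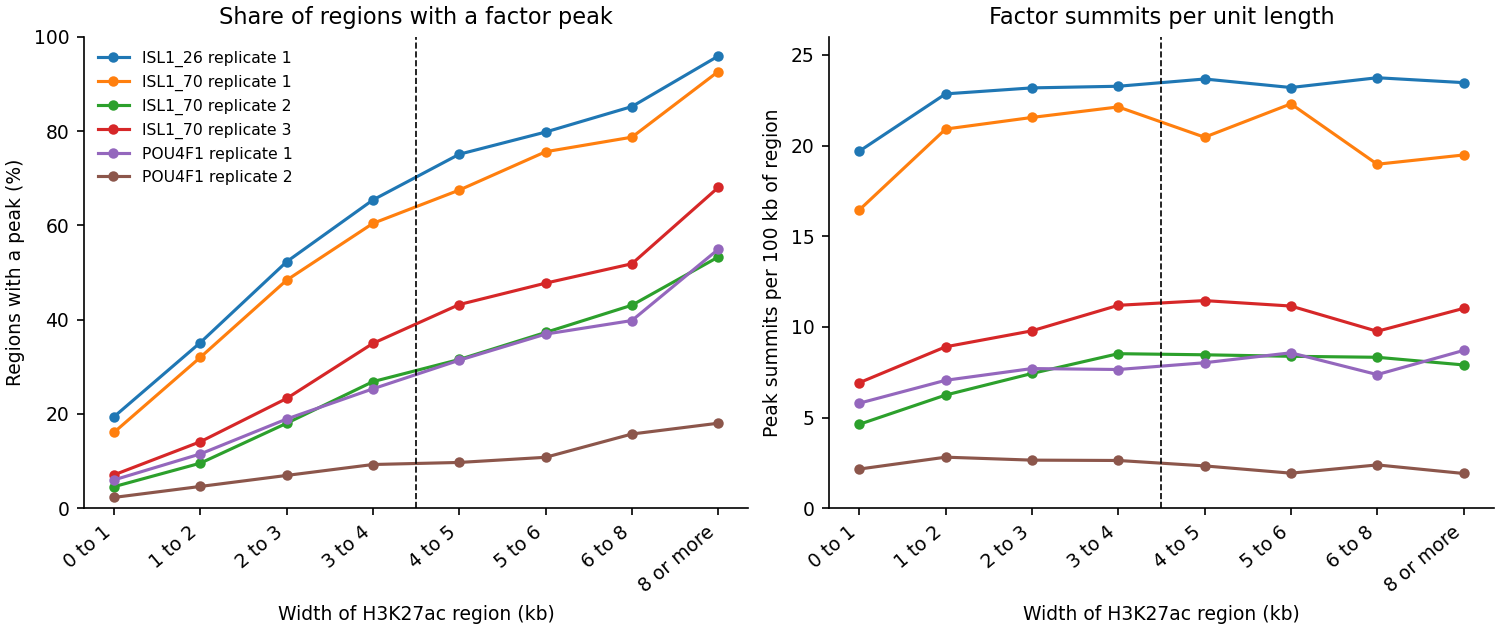
Share of regions with a peak, in percent (left), and peak summits per 100 kb (right), by width of the H3K27ac region in kb for the 6 factor libraries; the dashed line marks 4 kb. Shares rise over all widths, to 95.9% for ISL1_26 replicate 1, while summits per length change little above 2 kb.

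Inside wide regions the summits were spread along the length, somewhat more often in the middle. The share of summits in the central stretch that makes up 50% of a region was 57.2% for ISL1_26 replicate 1, 58.5%, 57.5% and 58.2% for ISL1_70 replicates 1 to 3, and 53.5% and 56.2% for POU4F1 replicates 1 and 2. It was 65.0% for H3K27ac replicate 1, which did not choose the regions. The peaks inside wide and narrower regions ranked alike in some lists and not in others. The median rank by the caller's q-value within a list, with the smallest q at 0%, was 20.0% in wide against 22.9% in narrower regions for ISL1_26 replicate 1, 36.0% against 35.2% for POU4F1 replicate 1 and 50.1% against 44.9% for ISL1_70 replicate 3.

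The share of wide regions with a peak of POU4F1 replicate 1 went up with the number of ISL1 libraries that had one. It was 16.1% of the 81 wide regions with no ISL1 peak, then 25.1%, 32.7% and 42.0% of those with a peak in 1, 2 and 3 ISL1 libraries and 135 of the 270 with a peak in all 4. Per 100 kb its summits were 3.51, 5.38, 7.20, 9.05 and 10.97, so the order held per length too, while the median width went from 4.75 to 5.48 kb. In narrower regions the same share went from 6.06% to 35.4%. For POU4F1 replicate 2 the shares were 11.1%, 9.87%, 13.2%, 14.3% and 8.89%, with no such order. For H3K27ac replicate 1, a mark and not a factor, they were 11.1%, 14.8%, 27.9%, 32.8% and 21.48%.

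Distances from POU4F1 to ISL1 summits were similar in wide and narrower regions. Of the 570 summits of POU4F1 replicate 1 in wide regions 196 (34.4%) lay within 200 bp of an ISL1 summit of any library, with a median distance of 398.5 bp. In narrower regions 34.6% of 4238 did, with a median of 374 bp. For POU4F1 replicate 2 the shares were 26.1% of 153 and 25.3% of 1589.

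Between places the shares with a factor peak differed little, and those with a promoter mark differed more. ISL1 peaks in at least 2 libraries were in 80.0% of the regions at gene ends, 72.8% of those inside gene bodies and 76.7% of those outside genes. POU4F1 replicate 1 was in 36.3%, 35.2% and 41.9%. H3K4me3 replicate 2, the promoter mark, was in 72.4%, 21.1% and 19.2%, and over all wide regions in 36.5%, against 16.2% of all regions with a peak in both lists. H3K27ac replicate 1, a short list of 8855 peaks, was in 59.0%, 9.70% and 6.98%, and over all wide regions in 24.4%, against 9.70% of all regions. Most wide regions away from gene ends had no peak of H3K27ac replicate 1.

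Per length, H3K4me3 replicate 2 and H3K27ac replicate 1 had fewer summits in wide regions but covered slightly more of their bases. H3K4me3 replicate 2 had 8.31 summits per 100 kb in wide and 11.7 in narrower regions, a ratio of 0.712, and H3K27ac replicate 1 had 5.99 and 7.15, a ratio of 0.838. Their peaks covered 11.9% of wide against 10.8% of narrower bases and 6.08% against 5.35%. Per length in regions outside genes ISL1_26 replicate 1 had 26.4 summits per 100 kb and POU4F1 replicate 1 had 10.5, against 24.2 and 7.90 at gene ends.

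A small set of wide regions also held the Polycomb mark. Peaks of both H3K27me3 replicates 2 and 3 were in 99 regions (7.97%), against 3.74% of narrower ones, and 66 of the 99 had a gene end within 1 kb, where the share was 17.4% in wide and 10.0% in narrower regions. Per length there were 2.13 summits of replicate 2 per 100 kb of wide and 2.63 of narrower regions, and 2.97 and 4.32 of replicate 3. These peaks can be long, and by bases covered replicate 2 was higher in wide regions (4.13% against 3.21%) and replicate 3 was nearly equal (4.36% against 4.37%). Of the 99, 85 (85.9%) held ISL1 peaks in at least 2 libraries and 35 (35.4%) a peak of POU4F1 replicate 1, against 75.5% and 36.4% of all wide regions. The widest after the region near Nrf1 were at Sema6b, a semaphorin (10.51 kb), and Isl2, the close relative of Isl1 (8.80 kb). Developmental factors in the set included Onecut1, Sox10, Tlx3, Insm1, Tbx3, Prdm12, Zeb2 and Isl1, chosen for naming after their values were seen. The tissue can hold several cell types, and whether both marks lie on the same chromosomes of the same cells was not tested.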

How the data were processed

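CUT&Tag peak lists of 14 libraries were used, 1 list per library and none pooled. MACS2 made the peaks, per the file headers, where each peak carries its name. The build mm10 and the tools SEACR, Bowtie2 and FastQC are named per the submitters' processing notes. Which library served as control, and the options, was not given in the sources used here. Each deposited line holds a position, a score, a fold enrichment (a ratio to the caller's background), a −log10 p-value, a −log10 q-value and the offset of its summit, as the authors' caller gave them. Every deposited list ends at a −log10 q of 1. Of these, the position and the summit offset were used to place peaks, and the q-value for ranks and thresholds inside 1 list. The score, the fold enrichment and the p-value were not used. Depth is unknown, and a longer list gives more overlaps. The 6 IgG libraries were not analysed here.

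Only chromosomes 1 to 19, X and Y were used. Peaks were merged where they overlapped by at least 1 bp, with Python 3.11.15, numpy 2.4.6, pandas 2.3.3 and scipy 1.17.1. Gene ends came from RefSeq, GRCm38.p6. A peak was counted in a region by overlap of at least 1 bp and, for rates, by its summit. For each factor library the summits per length in wide regions were divided by those in narrower ones, and the mean log2 ratio was tested by an exact sign-flip permutation over libraries; the counting and the test were tested on simulated data. The Wilson interval (95%) covers only counting error. Nothing says that libraries came from separate embryos, so p-values measure the spread between these libraries, which may be technical.

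Regions were named by the nearest end of a protein-coding gene. Those named were the 12 widest, the 8 with the most ISL1 and POU4F1 replicate 1 peaks, the 5 farthest from a gene end, 3 on each side of the threshold, up to 3 members per gene list by region width, the 5 genes with the most wide regions (6 named, with ties) and Isl1 and Pou4f1; others named were chosen after their values were seen, and a few that the rule names are not reported here. The 14 gene lists hold 334 genes. The members and lists were chosen with earlier results of these data known. Alternatives were other width limits, merging rules, peak thresholds and gene windows, and leaving out each library.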

Additional observations from a re-analysis of the deposited data

How the results depend on the processing

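The number of wide regions (1243) was 2893 with a limit of 3 kb, 338 with 6 kb, 2985 with peaks merged across gaps of 500 bp and 540 with 4 kb covered by each list. It was 1241 with H3K27ac peaks of −log10 q of at least 2, and 512 to 636 with only H3K27ac replicate 3 or only replicate 2 used. The share with a gene end within 1 kb (30.6%) was 27.4% across gaps, 34.1% with 4 kb covered by each list and 40.2% with a window of 5 kb. The share with ISL1 in at least 2 libraries (75.5%) was 66.4% at 3 kb, 85.2% at 6 kb, 68.7% across gaps and 82.8% with 4 kb covered by each list. Leaving out 1 library gave 52.3% (without ISL1_26 replicate 1) to 81.8% (without H3K27ac replicate 2). The share with POU4F1 replicate 1 (36.4%) was 30.1% at 3 kb, 45.3% at 6 kb, 32.2% across gaps and 43.1% with 4 kb covered by each list, and 36.6 to 39.5% without 1 H3K27ac library. The mean log2 ratio of summit rates (0.13) turned to −0.011 (exact permutation p = 0.969) against narrower regions of 2 to 4 kb. Leaving out 1 library gave 0.079 (without ISL1_70 replicate 2) to 0.82 (exact permutation p = 0.0312, without H3K27ac replicate 2), and the cause was not tested. The other settings gave 0.041 to 0.30, none past the threshold of 0.05. Of the gene lists, the neuron transcription factors kept 8 of 34 members at 6 kb and 10 without H3K27ac replicate 3. At 3 kb they had 21 of 34, cell cycle genes 10 of 28 and housekeeping genes 7 of 20. Of 23 named regions, 13 were still 4 kb wide without H3K27ac replicate 2 and 17 without replicate 3. Depth is unknown and limits every share. No paired analysis was possible because the labels do not say that a replicate number is shared between antibodies; the test itself compares wide with narrower regions within each library.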
